A study of Arabidopsis thaliana with 44 samples.

Results

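*RD29A* (AT5G52310, also *LTI78* and *COR78*) and *RD29B* (AT5G52300, also *LTI65*) are a pair of neighbouring Arabidopsis genes named for their response to desiccation and low temperature. They were chosen by gene identifier, not by a threshold on their values, and are 2 of the 33557 genes for which transcript levels were deposited. RNA had been sequenced from the entire aerial part of plants of 2 locally adapted ecotypes, SW from Sweden and IT from Italy, and of lines derived from them. All plants were grown for 23 days at 22°C under a 12 h photoperiod and harvested at ZT4, that is 4 h after the lights came on, either before cold (warm) or after 24 h or 2 weeks at 4°C. By the paper's methods, light was weaker at 4°C than during growth at 22°C, and plants cold for 2 weeks were older at harvest. In a ratio of cold to warm plants, temperature, light and, at 2 weeks, age cannot be told apart. The 44 samples form 22 groups of 2 replicates from 8 lines.

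The SW lines were the wild type, sw-cbf2, sw-cbf23 and sw-cbf123. In sw-cbf2 and sw-cbf123, CRISPR/Cas9 editing had placed small insertions or deletions in the coding regions of *CBF2*, or of *CBF1*, *CBF2* and *CBF3* together. The alleles of sw-cbf23 are not described in the sources used here, and its label is kept. The Italian lines were the wild type, it33, it8 and 35s. Wild-type IT itself carries a natural deletion that leaves its *CBF2* without function, and the paper gives the same deletion for its triple mutant. The *CBF2* alleles of it33 and 35s are not stated. The line it8 was taken as the IT triple mutant *cbf123* from the labels of a supplementary chart. The labels of it33 and 35s give the Italian ecotype and no further genotype. The study's methods mention plants overexpressing *CBF2*, and the 35s group, sampled in the warm alone, held *CBF2* at 539.5 FPKM (a read density, scaled by the length of the transcript and by the mapped fragments of the library) against 0.202 FPKM in warm IT. Each edited line stands for its own alleles, and the labels do not say whether plants were pooled within a sample.

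Both genes encode hydrophilic proteins that accumulate when plant cells lose water, and both are long-standing reporters of stress signalling. Both of the best known routes to such genes end at short promoter elements. In the cold, the AP2-type factors CBF1, CBF2 and CBF3 bind the CRT/DRE element, whose core is CCGAC, and the related DREB2 factors bind the same element during drought and heat. Under desiccation, abscisic acid (ABA) binds PYR-type receptors, which hold back PP2C phosphatases and so free SnRK2 kinases to activate bZIP factors of the ABF group at ABRE elements with the core ACGTG. *RD29A* is the classical example of a promoter with both kinds of element, and *RD29B* is the classical ABA-responsive member of the pair.

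The 2 genes lie in tandem on the plus strand of chromosome 5. In the TAIR10.1 assembly, *RD29B* spans positions 21237021 to 21239531 with 5 exons, and *RD29A* spans positions 21240717 to 21243644 with 4 exons. The end of *RD29B* and the start of *RD29A* are 1185 bases apart. The coding sequences give proteins of 710 residues for *RD29A* and 619 residues for *RD29B*. Their promoters are shown because the study rests on a factor family with a known binding element. Both windows run from 250 bases before to 50 bases after the annotated start of the gene, on the plus strand of TAIR10.1 (RefSeq), and capitals mark each CCGAC and each ACGTG on either strand.
*RD29A*, chr5:21240467-21240766: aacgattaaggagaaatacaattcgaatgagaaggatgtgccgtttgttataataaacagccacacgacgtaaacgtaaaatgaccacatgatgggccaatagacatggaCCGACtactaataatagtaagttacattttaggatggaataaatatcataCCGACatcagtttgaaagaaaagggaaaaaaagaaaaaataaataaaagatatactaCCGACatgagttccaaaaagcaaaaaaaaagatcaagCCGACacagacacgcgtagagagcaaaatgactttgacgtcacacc
*RD29B*, chr5:21236771-21237070: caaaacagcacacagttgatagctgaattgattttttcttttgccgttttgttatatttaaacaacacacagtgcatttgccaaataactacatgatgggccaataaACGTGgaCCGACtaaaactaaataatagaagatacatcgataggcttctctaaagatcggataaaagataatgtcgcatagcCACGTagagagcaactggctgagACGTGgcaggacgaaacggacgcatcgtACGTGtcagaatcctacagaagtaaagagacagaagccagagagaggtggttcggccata

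The windows differ in which element they hold. *RD29A* held 4 matches of CCGAC, which began at positions -140, -90, -33 and +4, where 0 is the first base of the annotated gene. *RD29B* held 1 such match, at -136. For ACGTG the order was turned round, with no match in the *RD29A* window and 4 in that of *RD29B*, at -143, -61, -38 and -10, that at -61 on the minus strand. Of 27443 promoter windows of the same length, 15% held CCGAC and 26.7% held ACGTG. A longer form of the first motif, TACCGACAT, occurred in 2 places in the *RD29A* window, in none in that of *RD29B*, and in 0.106% of all windows. Its letters include CCGAC and ACCGAC, so these counts overlap. ACCGAC itself was found 3 times in *RD29A* and once in *RD29B* (5.7% of windows), and GCCGAC was found in *RD29A* alone (3.28%). Of the *RD29B* matches, 3 read ACGTGG (9.85% of windows) and 1 read ACGTGT (12.4%), which both include ACGTG. Neither window held the G-box CACGTG (7.68%) or the evening element AAAATATCT (2.82%), a motif of clock-regulated genes.

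The longest run shared by the windows, acatgatgggccaata, had 16 bases. It began at -164 in *RD29A* and at -160 in *RD29B*. In each promoter it lies just ahead of a CCGAC, and in *RD29B* an ACGTG separates them. With a window of 1000 bases before the translation start, *RD29A* had the same 4 matches of CCGAC, and *RD29B* had 3 (39.4% of promoters held at least 1). That window held 1 ACGTG in *RD29A* and 6 in *RD29B* (54.2% of promoters). The matches of *RD29B* beyond the shorter window, from -697 to -515, lie inside the annotated neighbouring gene *SHOC1*. Among them, the CCGAC at -685 overlaps the ACGTG at -688, so these counts are not all of separate sites. The ACGTG of *RD29A* lies 69 bases after the annotated start, as ACGTGT, and counts as leader by that annotation alone. Where transcription starts in these plants was not examined. The shorter *RD29A* window ends before this match, so its lack of ACGTG depends on the annotated start.
*RD29A* leader, chr5:21240776-21240800: gacgcttcatACGTGtccctttatc
These are matches of letters in the reference accession. The SW and IT sequences were not examined, and no binding was measured.

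**Figure D1:**
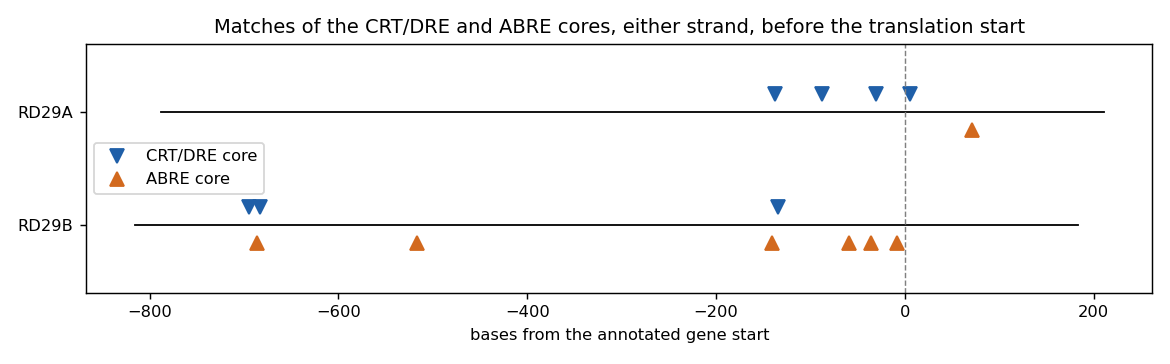
Positions of the CRT/DRE core CCGAC (blue, above each line) and the ABRE core ACGTG (orange, below each line) on either strand in the 1000 bases before the translation start, with the distance in bases from the annotated gene start on the x axis. The 4 CCGAC matches of *RD29A* lie within 140 bases of its start or just after it, and 4 of the 6 ACGTG matches of *RD29B* lie from -143 up to its start.

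Every value is the authors' pooled FPKM of a group, in which both replicates had been combined. No replicate error, test or p-value could therefore be given, the number of fragments per library is unknown, and a difference is stated as a ratio of 2 pooled values. Between 17705 and 18118 genes reached 1 FPKM in a group. Leaf markers (*RBCS1A*, *RCA*, *LHCB1.1* and *GAPA*) summed to between 11629 and 42374 FPKM. *RBCS1A* is listed at 0 in sw-cbf123 at 2 weeks, although the other 3 leaf markers were high there. Seed markers summed to at most 2.93 FPKM, with 0 or 1 of 6 at 1 FPKM (*OLEO1* at 1.06 FPKM in sw-cbf123 at 2 weeks), and the 4 flower markers summed to at most 0.539 FPKM. In such whole-shoot samples, a change in level within cells and a change in the share of cells that hold a transcript cannot be told apart. The reads were mapped to the TAIR10 reference for all lines, and the part of sequence differences between SW, IT and that reference in their levels was not tested.

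*RD29A* was scarce in the warm, very abundant after 24 h of cold, and intermediate after 2 weeks. In SW its level was 6.37 FPKM in the warm, 1654 FPKM at 24 h and 360 FPKM at 2 weeks. In IT it was 12.5, 1340 and 74.5 FPKM at the same times. The SW value at 24 h made *RD29A* the 51st most abundant of the 33557 genes. In sw-cbf2 the values were 8.09, 2790 and 235 FPKM, and in sw-cbf23 they were 6.66, 2627 and 164 FPKM. The sw-cbf2 value at 24 h was the highest of all 22 groups and ranked 24th among genes. For sw-cbf123 the series was 10.3, 1258 and 23.6 FPKM. The line it33 had 12.1, 913 and 44.7 FPKM, and it8 had 6.24, 207 and 15.3 FPKM. The 35s group had 399 FPKM without any cold. For *RD29A*, each of the 7 groups at 24 h but 1 lay above every other group. The exception was it8, whose 207 FPKM was below 35s in the warm and below SW and sw-cbf2 at 2 weeks.

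*RD29B* followed the same times at far lower levels. In SW it stood at 0.161 FPKM in the warm, 45.7 FPKM at 24 h and 0.811 FPKM at 2 weeks. In IT it stood at 1.21, 24.9 and 1.0 FPKM. The sw-cbf2 line had 0.287, 29.0 and 0.311 FPKM, and sw-cbf23 had 0.128, 20.1 and 0.680 FPKM. In sw-cbf123 the values were 0.125, 6.77 and 0.240 FPKM. In it33 they were 0.940, 9.02 and 1.1 FPKM, and in it8 0.787, 3.47 and 1.71 FPKM. The 35s group had 8.67 FPKM in the warm, between it33 and sw-cbf123 at 24 h. *RD29B* exceeded 2 FPKM in all 7 groups at 24 h and in 35s, and in no other group. Neither gene was listed at 0 anywhere.

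**Figure D2:**
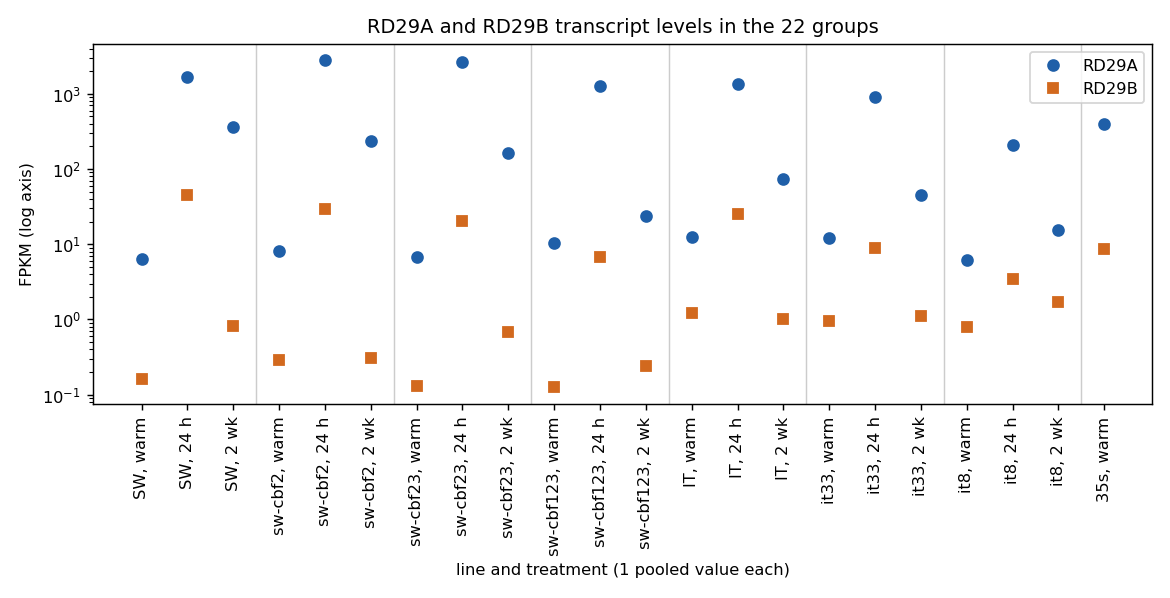
FPKM on a log axis of *RD29A* (blue circles) and *RD29B* (orange squares) in the 22 groups, 1 pooled value each, with vertical lines between lines of plants. *RD29A* runs from 6.24 to 2790 FPKM and *RD29B* from 0.125 to 45.7 FPKM, and both peak at 24 h of cold in each of the 7 lines sampled there.

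Since FPKM is scaled by transcript length, the levels of the pair can be compared within a group. *RD29A* was the more abundant in all 22 groups, by 7.93 times in warm it8 at the least and by 758 times in sw-cbf2 at 2 weeks at the most. In warm SW the ratio was 39.6, with 36.2 at 24 h and 444 at 2 weeks. In IT it was 10.3, 53.8 and 74.4. In it8 it was 7.93 in the warm and 8.99 at 2 weeks, against 59.6 at 24 h. The 35s ratio was 46.0. The lowest and highest ratios, in warm it8 and in sw-cbf2 at 2 weeks, divide by *RD29B* levels under 1 FPKM. So do the SW ratios in the warm and at 2 weeks, and the precision of such low levels is unknown. At 24 h the SW lines stood in the order SW, sw-cbf2 (96.1), sw-cbf23 (130) and sw-cbf123 (186). The transcripts share a run of 41 bases, and reads from it could have been counted for either gene. What part this had in the low *RD29B* values was not tested.

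**Figure D3:**
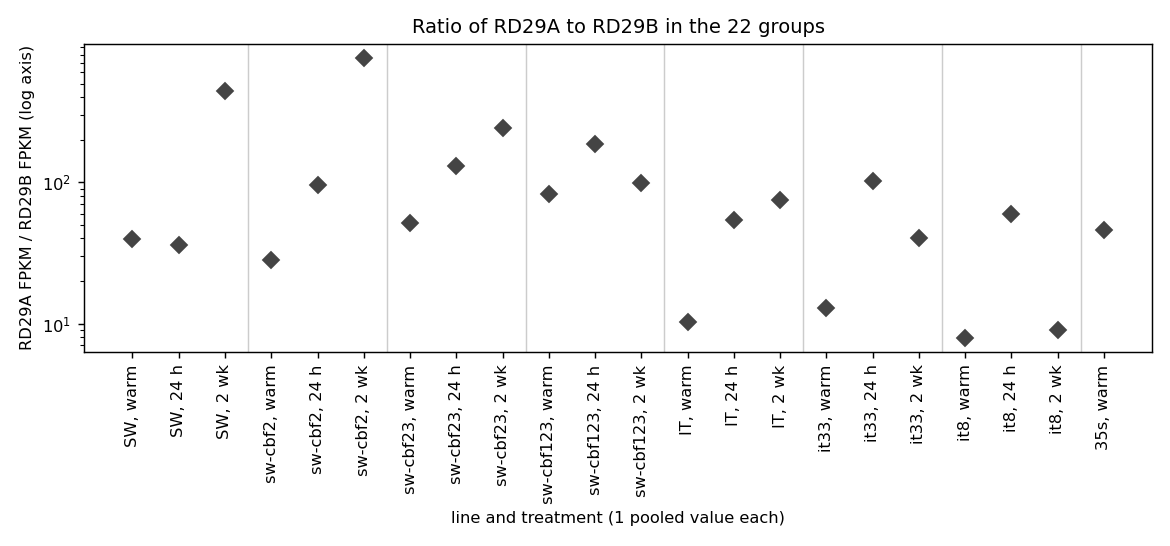
Ratio of *RD29A* FPKM to *RD29B* FPKM, on a log axis, in each of the 22 groups (1 pooled value per group). The ratio runs from 7.93 in warm it8 to 758 in sw-cbf2 at 2 weeks, and in SW it is 36.2 at 24 h but 444 at 2 weeks. The values 7.93, 758 and 444 divide by *RD29B* levels under 1 FPKM.

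The first comparison was of cold with warm plants of one line. Log2 ratios were formed from levels to which 0.5 FPKM had been added, a step that understates changes of scarce transcripts. A gene was called higher or lower when this ratio was at least 1 or at most -1, a 2-fold difference, and 1 of the groups reached 1 FPKM. *RD29A* passed the level filter in 55 of 55 comparisons and *RD29B* in 37 of 55, the others being pairs of groups that both lay under 1 FPKM. After 24 h of cold in SW, both genes were called higher, with log2 ratios of 7.91 for *RD29A* and 6.13 for *RD29B*, where 14.6% of the 18828 genes tested were called higher. They ranked 14th and 50th. In IT both were again called higher (9.21% of 18619 genes), with 6.69 for *RD29A*, ranked 29th, and 3.89 for *RD29B*, ranked 129th. Without the added 0.5 FPKM, *RD29B* stood 284-fold above warm in SW and 20.5-fold in IT, and its warm level was 0.161 FPKM in SW and 1.21 FPKM in IT.

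At 2 weeks *RD29A* was still called higher than in the warm, with a log2 ratio of 5.71 in SW (9.39% of genes were called higher) and 2.53 in IT (7.89%). *RD29B* was called in neither. Its log2 ratio was -0.19 in IT. In SW it was 0.99, between levels that were both under 1 FPKM and so could not be called. That value rests on the added 0.5 FPKM: it was 1.80 with 0.1 FPKM added and 2.33 with none, a 5.04-fold difference between 0.811 and 0.161 FPKM. Over the 7 lines and both times, *RD29A* was called higher in 14 of 14 comparisons and *RD29B* in 7 of 14, all of them at 24 h. Of all genes, between 7.56% and 14.6% were called higher in these comparisons. At 2 weeks in SW, sw-cbf2, sw-cbf23 and sw-cbf123, *RD29B* failed the level filter and could not be called. At 24 h in every line but IT, it passed the filter through its cold level alone. The counts of the pair are therefore not like for like. From 24 h to 2 weeks *RD29A* was called lower in 7 of 7 lines, by log2 ratios from -2.20 in SW (9.41% of genes called lower) to -5.71 in sw-cbf123 (7.15%). *RD29B* was called lower in 6 of 7, with -5.14 in SW, -4.08 in IT (10.4%) and -5.19 in sw-cbf2 (7.54%), the lowest of its values. The exception was it8, at -0.85 for *RD29B* (11% of genes were called lower there), where *RD29A* had -3.71.

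The mutant and labelled lines had their own cold responses. At 24 h over warm, *RD29A* had a log2 ratio of 8.34 in sw-cbf2 and *RD29B* 5.23 (13.3% of genes were called higher). In sw-cbf23 the pair had 8.52 and 5.04 (13.3%), and in sw-cbf123 6.87 and 3.54 (12.1%). In it33 they had 6.18 and 2.73 (11.4%), and in it8 4.94 and 1.62 (11.4%). *RD29A* had a larger ratio than *RD29B* in each line, and both were smallest in it8. At 2 weeks over warm, *RD29A* was called higher in all 5 of these lines. Its log2 ratios were 4.78 for sw-cbf2 (9.95%), 4.52 for sw-cbf23 (9.08%), 1.16 for sw-cbf123 (9.22%), 1.84 for it33 (7.56%) and 1.23 for it8 (8.08%). From 24 h to 2 weeks both members were also called lower in sw-cbf23 (8.63% of genes) and it33 (11%), *RD29A* at -4.00 and -4.34 and *RD29B* at -4.13 and -2.57.

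The second comparison set each SW mutant against SW, line by line. *CBF2* is edited in sw-cbf2, and all 3 *CBF* genes are edited in sw-cbf123. At 24 h *RD29A* was called in none of the 3 lines. It had 2790 FPKM in sw-cbf2 and 2627 FPKM in sw-cbf23 against 1654 FPKM in SW, log2 ratios of 0.75 and 0.67, and 1258 FPKM in sw-cbf123, a log2 ratio of -0.39. *RD29B* stood lower in each line of the same series, at 29.0, 20.1 and 6.77 FPKM against 45.7 FPKM in SW. Its log2 ratio was -0.65 in sw-cbf2, not called (3.18% of genes were called lower), then -1.16 in sw-cbf23 and -2.67 in sw-cbf123, both called lower. Of all genes tested, 2.24% were called lower in sw-cbf23 and 5.57% in sw-cbf123. In sw-cbf123 the *RD29B* level was 85.2% below SW and that of *RD29A* 24.0% below it. The median log2 ratio of all genes tested was 0.10 in that comparison and 0.11 for sw-cbf23.

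The SW mutants were also compared with each other, which leaves the SW samples out. From sw-cbf23 to sw-cbf123 at 24 h, both genes were called lower (2.09% of genes), *RD29A* by a log2 ratio of -1.06 and *RD29B* by -1.51. From sw-cbf2 to sw-cbf123 the ratios were -1.15 and -2.02, again called (1.41%). Between sw-cbf2 and sw-cbf23 they were -0.09 and -0.52, and not called. *RD29A* was thus called lower in the triple mutant against both other mutants and not against the wild type.

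At 2 weeks *RD29A* was low in the SW mutants. From 360 FPKM in SW it stood at 235 FPKM in sw-cbf2 (log2 ratio -0.61, not called), 164 FPKM in sw-cbf23 (-1.13, called, 1.93% of genes lower) and 23.6 FPKM in sw-cbf123 (-3.90, called, 2.63% of genes lower). The last of these was a reduction of 93.4% and the 27th lowest ratio of 18123 genes. Its step from sw-cbf23 to sw-cbf123 was -2.77 (1.01% of genes called lower). *RD29B* was under 1 FPKM in all 4 lines at that time and could not be called. Its level was 0.811 FPKM in SW, 0.311 FPKM in sw-cbf2, 0.680 FPKM in sw-cbf23 and 0.240 FPKM in sw-cbf123. The last of these was 70.4% under SW, with a log2 ratio of -0.83 that was -1.76 with nothing added. The reduction of *RD29A* in sw-cbf123 was thus 24.0% at 24 h and 93.4% at 2 weeks. In the warm, *RD29A* had 10.3 FPKM in sw-cbf123 and 6.37 FPKM in SW, a log2 ratio of 0.65, not called.

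In the IT background both genes were low at 24 h in it8. *RD29A* had 207 FPKM against 1340 FPKM in IT, and *RD29B* had 3.47 FPKM against 24.9 FPKM. The log2 ratios were -2.69 and -2.68, and both genes were called lower, where 1.57% of genes were. They were the 63rd and 65th lowest of 18220. In it33, *RD29A* stood at 913 FPKM (-0.55, not called) and *RD29B* at 9.02 FPKM (-1.42, called, 0.984% of genes lower). Against it33, it8 was called lower for both genes at 24 h (0.77% of genes), at -2.14 and -1.26. At 2 weeks *RD29A* was called lower in it8, at 15.3 FPKM against 74.5 FPKM in IT (-2.24, 0.906% of genes), and stood at 44.7 FPKM in it33 (-0.73, not called). Against it33 it was called lower in it8 too (-1.51, 0.837% of genes). *RD29B* was at 1.71 FPKM in it8, 1.1 FPKM in it33 and 1.0 FPKM in IT, with neither line called. In the warm it8 had 6.24 FPKM of *RD29A* against 12.5 FPKM in IT, a log2 ratio of -0.95 just inside the threshold.

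**Figure D4:**
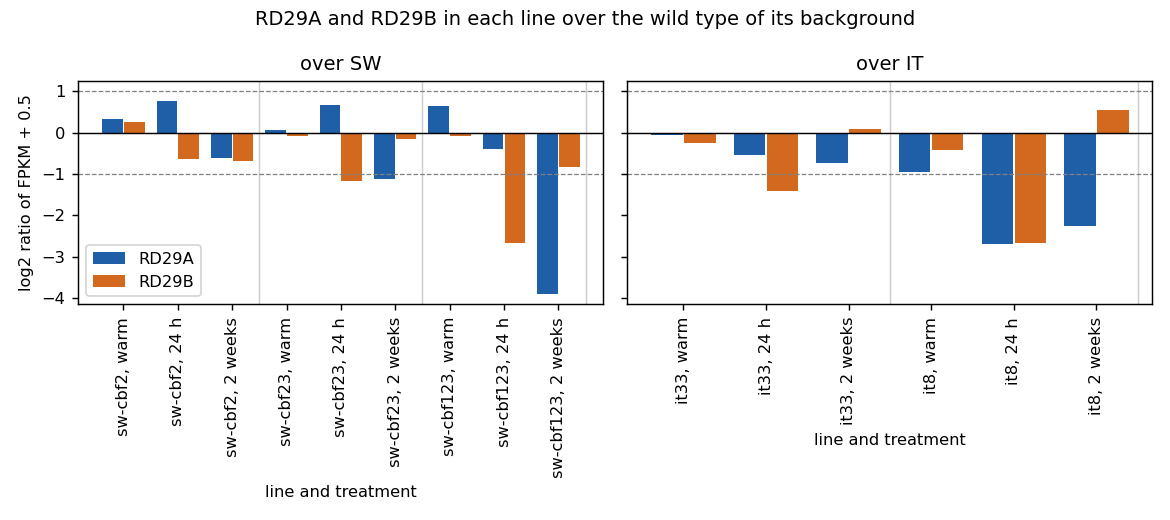
Log2 ratio of FPKM + 0.5 in each line over the wild type of its background, SW on the left and IT on the right, for the 3 treatments, and for *RD29A* (blue bars) and *RD29B* (orange bars). Dashed lines mark a 2-fold difference. In sw-cbf123 *RD29B* is low at 24 h (-2.67) and *RD29A* at 2 weeks (-3.90), and in it8 both are low at 24 h (-2.69 and -2.68).

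For *RD29B*, the ratio of triple mutant to wild type at 24 h was nearly the same number in both backgrounds, -2.67 and -2.68. For *RD29A* it was -0.39 in SW and -2.69 in IT, 2.3 apart on the log2 scale. Whether this exceeds the replicate error could not be tested. What remained of the cold response in the triple mutants was also given over the wild type warm level. At 24 h, *RD29A* remained 7.52 above warm SW in sw-cbf123 and 4.00 above warm IT in it8, and *RD29B* remained 3.46 and 1.21 above, on the log2 scale. At 2 weeks the values for *RD29A* were 1.81 and 0.29, and those for *RD29B* were 0.16 and 0.36. Against its own warm level, *RD29A* in it8 at 2 weeks was called higher at 1.23 (8.08% of genes), a call that was lost against warm IT.

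The ecotypes were then compared directly. At 24 h SW and IT were called different for neither gene, with log2 ratios of SW over IT of 0.30 for *RD29A* and 0.86 for *RD29B*. At 2 weeks *RD29A* was called higher in SW (2.26, 9.23% of genes higher), at 360 FPKM against 74.5 FPKM. In the warm *RD29B* was called lower in SW (-1.37), where 17.3% of genes were. Its levels were 0.161 FPKM in SW and 1.21 FPKM in IT, so it passed the filter through IT alone. *RD29A* had -0.92 in the warm and was not called. With 1 FPKM added in place of 0.5, the *RD29B* value was -0.93 and the call was lost. Between the triple mutants, *RD29A* was called higher in sw-cbf123 than in it8 at 24 h (2.60, 8.12% of genes), at 1258 FPKM against 207 FPKM. At 2 weeks *RD29A* had 0.61, not called, and *RD29B* was called lower in sw-cbf123 (-1.58, 10.8% of genes), at 0.240 FPKM against 1.71 FPKM.

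The 35s group showed both genes high without cold. *RD29A* had 399 FPKM against 12.5 FPKM in warm IT, 32.0-fold higher, and *RD29B* had 8.67 FPKM against 1.21 FPKM, 7.15-fold higher. Both were called (log2 ratios of 4.94 and 2.42), where 1.77% of 18383 genes were called higher, and they ranked 22nd and 89th. *CBF2* was at 539.5 FPKM and *CBF3* at 6.60 FPKM in that group, against 0.202 and 0.533 FPKM in warm IT. IT at 24 h had 1340 FPKM of *RD29A* and 24.9 FPKM of *RD29B*, above the 35s values.

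The pair was next set beside 10 other cold-regulated (*COR*) genes long known as targets of the CBF factors, a list fixed with earlier results of these data known. Several, such as *GolS3*, *LTI30* and *KIN1*, and *RD29B* itself, are in the paper's list of shared CBF regulon genes. That list was drawn in part from these samples, by cold induction and reduction in the triple mutants. The counts below are therefore descriptions. Most encode hydrophilic or membrane proteins of cold acclimation, such as the chloroplast proteins *COR15A* and *COR15B*, the dehydrins *COR47*, *ERD10* and *LTI30*, and *KIN1* and *KIN2*, while *GolS3* makes galactinol for raffinose synthesis. All 10 were called higher at 24 h in SW (median log2 ratio 7.07, against -0.02 over all genes tested) and in IT (6.44, against -0.06). Of all genes tested, 14.6% were called higher in SW and 9.21% in IT. In sw-cbf123 at 24 h, 7 of 10 were called lower than in SW (median -1.26, against 0.10), where 5.57% of all genes were. Among these 10 genes and the pair, *RD29A* had the second smallest reduction there. *KIN2* had the smallest, at 1.72%, with 6690 FPKM against 6807 FPKM, and *COR15B* had 26.3%. *RD29B* had the third largest, at 85.2%, after *GolS3* at 90.6% (92.6 FPKM against 984 FPKM) and *LTI30* at 88.5%.

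In it8 at 24 h all 10 *COR* genes were called lower than in IT (median -2.90, against 0.06 over all genes tested, of which 1.57% were called lower). Reductions of the 12 genes ran from 62.8% for *ERD10* to 97.1% for *GolS3*, and *RD29A* and *RD29B* took the 6th and 7th places from the smallest. Each of the 10 had a lower log2 ratio here than in sw-cbf123 over SW at 24 h, as *RD29A* did. Among them were *KIN2* (-2.24 against -0.03), *COR15A* (-3.68 against -1.11) and *ERD10* (-1.43 against -1.24). In sw-cbf123 at 2 weeks all 10 were called lower (median -2.51, against 0.05), where 2.63% of all genes were. The 93.4% of *RD29A* was the 4th largest reduction there, behind *GolS3* at 99.2%, *KIN1* at 99.1% and *LTI30* at 94.8%. In sw-cbf2 and sw-cbf23 at 24 h, *KIN1*, *KIN2* and *COR15B* lay with *RD29A* above their SW levels. In sw-cbf23, *RD29A* had the highest value relative to SW of the 12 genes, 58.9% above it, and *RD29B* the lowest, 55.9% below. All 10 *COR* genes were called higher in 35s (median 4.31, against 0.01), where 1.77% of all genes were. They ran from *GolS3* at 8.12 to *COR413-PM1* at 2.39, a protein of the plasma membrane. *RD29A* was 5th highest of the 12 by fold and *RD29B* 10th.

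**Figure D5:**
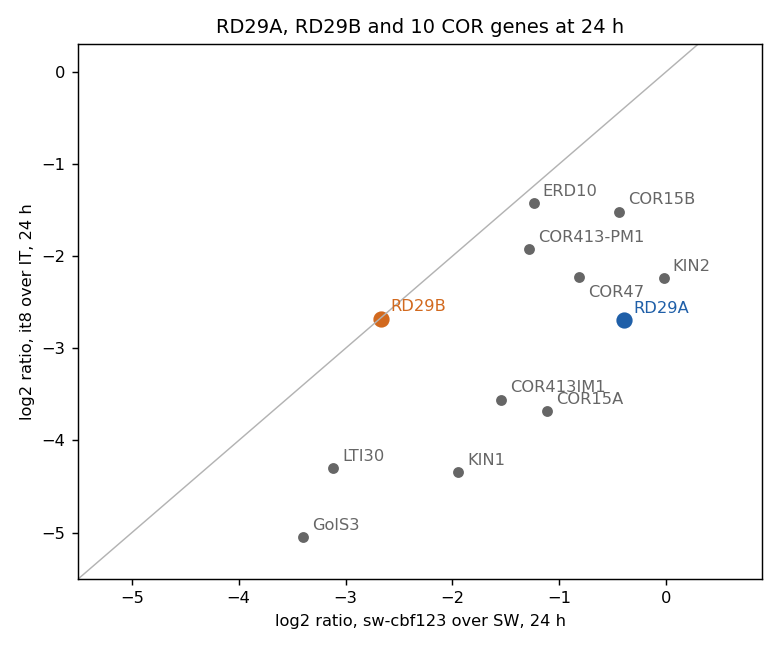
Log2 ratio of FPKM + 0.5 at 24 h of cold in sw-cbf123 over SW (x axis) and in it8 over IT (y axis) for *RD29A* (blue), *RD29B* (orange) and 10 *COR* genes (grey), 1 pooled value per group, with the line of equal values. *RD29B* lies on that line at -2.67 and -2.68, and *RD29A* lies below it at -0.39 and -2.69, as do all 10 *COR* genes.

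A second list held 12 genes that respond to ABA. At 24 h 10 of 12 were called higher in SW (median 2.96, against -0.02 over all genes tested, of which 14.6% were called higher) and 4 of 11 tested in IT (0.81, against -0.06, with 9.21% of all genes). Of those called in SW, *LEA4-5*, *TSPO* and *NAC019* were under 1 FPKM in the warm. They passed the filter through their cold level alone, which nearly fixed their calls. In warm IT they had 1.54, 2.43 and 30.8 FPKM, so the counts of SW and IT are not like for like. *LEA4-5*, a late embryogenesis abundant protein gene, had 0.130 FPKM in warm SW, 34.3 FPKM at 24 h and 0.181 FPKM at 2 weeks, and 4.33 FPKM in sw-cbf123 at 24 h. *TSPO*, a membrane protein induced by ABA, had 0.0192, 19.8 and 0.242 FPKM, and 3.39 FPKM in sw-cbf123 at 24 h. Both were among 4 of 12 called lower in sw-cbf123 at 24 h, with the NAC factor gene *RD26* (27.4 FPKM against 97.9 FPKM) and *HVA22D* (103 FPKM against 229 FPKM). *RD22* and the lipid transfer protein gene *LTP3* were called higher (431 FPKM against 150 FPKM, and 12.9 FPKM against 5.42 FPKM), and the list's median was -0.24 against 0.10 over all genes, of which 5.57% were called lower and 5.27% higher. The dehydrin *RAB18*, a standard ABA marker, was at 11.9 FPKM in sw-cbf123 and 11.2 FPKM in SW. In it8 at 24 h, 2 of 11 were called lower (*LEA4-5* and *HVA22D*), where 1.57% of all genes were (median -0.40, against 0.06).

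In the warm, where *RD29B* was called lower in SW than in IT, 9 of the 11 ABA-responsive genes tested were called lower too (median -2.33, against -0.01 over all genes, of which 17.3% were called lower), and 1 of the 10 *COR* genes was. Of those called lower, *LEA4-5*, *TSPO*, *NAC019* and *RD29B* itself were under 1 FPKM in warm SW. They passed the filter through their IT level alone, which favoured a call as lower. *RD26* had 4.61 FPKM in SW and 63.5 FPKM in IT, and *RD20*, a caleosin of lipid bodies, had 15.6 and 126 FPKM. At 2 weeks over warm, 5 of 10 ABA-responsive genes tested were called higher in SW, where 9.39% of all genes were (median 0.90, against 0.03). Among them, *NAC019* and *LTP4* had 0.644 and 0.464 FPKM in warm SW and passed the filter through their cold level alone. In IT 1 of 12 was called higher and 3 lower, where 7.89% and 11.7% of all genes were (median -0.36, against -0.03), so the single gene called higher is close to the share over all genes. *COR* genes were called higher at 2 weeks in 10 of 10 in SW and 9 of 10 in IT. In 35s, 4 of 12 ABA-responsive genes were called higher and 2 lower (median -0.46, against 0.01), where 1.77% and 3.68% of all genes were. Of those called higher, *LTP4* had 0.304 FPKM in warm IT and passed the filter through its 35s level alone.

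The factors that bind the 2 elements were measured as well. Of 9 DRE-binding genes, 6 passed the level filter in SW at 24 h and 8 in IT, and these were called higher. Other than *DREB2A* in IT, each was under 1 FPKM in the warm and passed through its cold level alone, so the filter nearly fixed these calls and nothing is read from their number. *CBF2* stood at 36.0 FPKM in SW and 108 FPKM in sw-cbf123, and *CBF3* at 53.2 and 144 FPKM, both called higher in the mutant, where the transcripts carry the edited alleles. *DREB2A*, which acts in drought and heat, was at 31.0 FPKM in SW, 21.4 FPKM in sw-cbf123, 26.3 FPKM in IT and 44.3 FPKM in it8 at 24 h, against 0.782 FPKM in warm SW and 1.34 FPKM in warm IT. Of 6 ABRE-binding genes, *ABF1* and *ABI5* were called higher at 24 h in SW and IT, where 14.6% and 9.21% of all genes were. *ABF1* rose to 65.5 FPKM in SW and 67.7 FPKM in IT, from warm levels of 4.14 and 7.04 FPKM. *ABI5*, known from seeds, rose to 1.49 and 3.47 FPKM from 0.0498 and 0.140 FPKM. It too passed the filter through its cold level alone, so its calls were nearly fixed. None of the 6 was called in sw-cbf123 or it8 against its wild type at 24 h. Of all genes, 5.57% were called lower and 5.27% higher in sw-cbf123, and 1.57% and 0.807% in it8. For so few genes that is close to the shares, and nothing is read from it. *ABF1* was at 72.0 FPKM in sw-cbf123 and 57.5 FPKM in it8.

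Genes of ABA signalling and level were called higher for 12 and lower for 1 of 15 tested in SW at 24 h, and higher for 6 and lower for 2 of 15 in IT. Over all genes, 14.6% were called higher and 14.7% lower in SW, and 9.21% and 10.9% in IT. The medians of the list were 1.82 in SW and 0.91 in IT, against -0.02 and -0.06 over all genes tested. *HAI1*, *HAI2*, *NCED3* and *CYP707A1* were under 1 FPKM in warm SW, as *HAI2* was in warm IT. There they passed the filter through their cold level alone, which nearly fixed their calls as higher. *NCED3*, the stress-induced enzyme of ABA synthesis, had 0.901 FPKM in warm SW, 33.2 FPKM at 24 h and 5.69 FPKM at 2 weeks. It had 17.5 FPKM in sw-cbf123 at 24 h. In IT it had 7.07 FPKM in the warm and 24.2 FPKM at 24 h, and it8 had 24.9 FPKM at 24 h. The PP2C gene *HAI1* had 0.565 FPKM in warm SW and 52.9 FPKM in warm IT. It was the 1 gene of 15 called lower in sw-cbf123 at 24 h, at 2.02 FPKM against 9.15 FPKM. That count is close to the 5.57% of all genes called lower there. In it8 none of 15 was called, where 1.57% of all genes were called lower and 0.807% higher, so nothing is read from either count.

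Genes whose pattern over the 22 groups was most like that of each member were found by Pearson's r of log2(FPKM + 0.5) among 16557 genes that reached 5 FPKM somewhere. For *RD29A* they were *COR47* (0.98), *LTI30* (0.97), AT1G27200 (0.97), *COR413-PM1* (0.96) and *BGLU25* (0.96). For *RD29B* they were AT4G21570 (0.97), AT1G21790 (0.95), AT4G27560 (0.95), *BTI1* (0.95) and AT5G28150 (0.95). The lists share no gene. Between *RD29A* and *RD29B* themselves r was 0.85 and Spearman's rho 0.81, which put *RD29B* in 232nd place for *RD29A* and *RD29A* in 128th place for *RD29B*. The groups share lines, treatments and library preparation, so these are descriptions. With Spearman's rho, none of the 5 genes named for *RD29B* remained among its first 5.

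None of the 6 nearest annotated neighbours was called higher at 24 h in SW or IT, where 14.6% and 9.21% of all genes were. AT5G52270, *SHOC1*, AT5G52330 and *EXO70A2* never reached 1 FPKM and so could not be called, and nothing is read from the count. AT5G52280 ran from 2.90 to 12.8 FPKM and was not called at 24 h, with log2 ratios of -0.87 in SW and -0.63 in IT. *CYP96A4*, a cytochrome P450 gene next to *RD29A*, ran from 3.35 to 22.5 FPKM. It was called lower at 24 h in SW (-1.91, 14.7% of genes) and in IT (-2.25, 10.9% of genes). In sw-cbf123 over SW at 24 h it was called higher (1.02, 5.27% of genes).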

How the data were processed

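Aerial tissue of 22 groups, 2 samples each, was profiled by RNAseq. Per the submitters' processing notes the authors mapped reads to TAIR10 with TopHat2 2.1.0 and ran Cuffdiff of Cufflinks 2.1.1; the paper's methods give another Cufflinks version. The authors deposited FPKM values, which take account of the length of the transcript and the size of the library, with both replicates of a group combined in 1 column. Neither fragment counts nor replicate values were used here, so a planned linear model was replaced by ratios, no p-value was computed, and the precision of a value is unknown.

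Python 3.11.15 with pandas 2.3.3 and NumPy 2.4.6 served to form ratios as log2 of FPKM + 0.5, called at 1 or -1 where 1 of the groups reached 1 FPKM; percent reductions and folds use FPKM as deposited. The calls were tested on simulated data, with an assumed noise and changes placed only in genes far above the *RD29B* level of warm SW. That test says nothing about calls of transcripts as scarce as *RD29B*. A lowess trend (fraction 0.3) was taken with statsmodels 0.14.6, and figures were drawn with matplotlib 3.10.9. Sequences and positions are from TAIR10.1 (RefSeq); the deposited table holds no coordinates.

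The members, gene lists and comparisons were chosen with earlier results of these data known. Named genes are both members, genes of the fixed lists, the 3 annotated neighbours on each side, and the 5 genes most like each member. Alternatives were 0.1, 1 or no FPKM added, no filter, median-of-ratios scaling, quantile normalization, the lowess trend, the wild type warm level as reference, a longer promoter window and Spearman's rho. The 55 comparisons share groups and are not independent.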

Additional observations from a re-analysis of the deposited data

Results flagged for a closer look

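The ratios below had opposite signs in the SW and IT backgrounds and lay at least 1 apart on the log2 scale. No difference of this kind was tested, since each group is 1 pooled value. For *RD29B* at 2 weeks over warm, the log2 ratio was 0.99 in SW (0.811 against 0.161 FPKM) and -0.19 in IT (1.0 against 1.21 FPKM), a difference of 1.18. For *RD29A* in the warm, the triple mutant over wild type was 0.65 in SW (10.3 against 6.37 FPKM) and -0.95 in IT (6.24 against 12.5 FPKM), a difference of 1.59. For *RD29B* at 2 weeks, the triple mutant over wild type was -0.83 in SW (0.240 against 0.811 FPKM) and 0.56 in IT (1.71 against 1.0 FPKM), a difference of -1.38. None of these 6 ratios was called, and most of the levels behind the *RD29B* values were near or under 1 FPKM.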

How the results depend on the processing

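Of 790 alternative values of 110 log2 ratios, 782 kept the call, or the lack of one, and no called ratio changed sign. The 8 exceptions are given first. *RD29A* in it8 at 2 weeks was 0.29 against warm IT (1.23 against its own warm level). *RD29B* in it8 at 2 weeks over warm was 1.03 with 0.1 FPKM added and 1.12 with none (0.78 with 0.5), and at 2 weeks over 24 h it was -1.02 with none and -1.03 with the lowess trend taken out (-0.85). *RD29A* in warm it8 over IT was -1.0 with none (-0.95). *RD29B* in warm SW over IT was -0.93 with 1 FPKM added (-1.37). *RD29B* in warm sw-cbf123 over it8 was -1.04 and was called with no filter on low values. In these cases the construction of the ratio sets the call, other than for the lowess trend, where the cause was not tested. Among the ratios that kept no call, 8 values (of 6 ratios, all between -0.20 and 0.20) had the other sign, such as *RD29B* in sw-cbf2 at 2 weeks over warm, 0.04 and then -0.0057 with median-of-ratios scaling. A further 17 values of 9 *RD29B* ratios lay on the other side of 1 or -1 from the main value, in pairs that failed the level filter. At 2 weeks over warm these were 1.80 (0.1 FPKM), 2.33 (none), 1.08 (quantile) and 1.31 (lowess) in SW, and 1.77 (0.1 FPKM), 2.41 (none) and 1.27 (lowess) in sw-cbf23 (0.91 with 0.5). At 2 weeks sw-cbf123 over SW was -1.42 and -1.76, and sw-cbf2 over SW -1.15 and -1.38, with 0.1 FPKM and with none. In warm sw-cbf123 over it8 the value instead moved inside the threshold, to -0.67 with 1 FPKM added (-1.04 with 0.5). Scaling moved the median of all genes by over 0.1 in 6 comparisons, by -0.12 to 0.13, and changed no call of either gene under median-of-ratios or quantile scaling. Of 40 list counts, 2 moved. No paired analysis was possible because the authors had combined both replicates of each group, and leaving out a replicate was not run for the same reason. Depth is unknown, so *RD29B* levels under 1 FPKM carry no stated precision.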
